A study of Mus musculus with 44 samples.

Results

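Accessible chromatin of silenced mouse cortical neurons was compared after 30 min of 100 nM FHT1015, which the labels describe as an inhibitor of the BAF ATPase, and after 30 min of 0.1% DMSO. Of the 44 ATAC-seq libraries of the series, 4 make up this comparison, 2 per group, and they were chosen by their labels. The neurons were wild type, came from cortices of embryonic day 16.5 mice and were used at 7 days in vitro (DIV7). Both groups were held overnight in 1 µM tetrodotoxin and 100 µM D-AP5, which block action potentials and NMDA receptors, received no KCl, and were given 200 U/mL DNase during the treatment. The other groups used below are FHT1015 and DMSO for 10 min without KCl, for 10 min with 50 mM KCl and for 30 min with 50 mM KCl. Each has 2 libraries in the same medium and from separate wells. Of the 10 min groups with KCl, DMSO served to find regions that KCl changed. The FHT1015 group of that kind served only to build the regions and the fit. The labels treat each embryo's cortex as a biological replicate, but tie no library to an embryo, so p-values measure the spread between these libraries, which may be technical. Strain and sex are not given in the sources used here.

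BAF (the mammalian SWI/SNF complex) is a remodeler that uses ATP to slide or evict nucleosomes. Its motor subunit is Smarca4 or Smarca2. It is known for keeping enhancers open, more than promoters, and in neurons for a subunit set of its own. ATAC-seq reads the DNA that a transposase can cut, so a lost peak can mean less accessible DNA at that place. Whether a peak is called also depends on read depth. In a bulk culture, fewer cells with an open site and less opening per cell cannot be told apart.

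The deposited data are peak lists on mm10. Each line is a summit, a local maximum inside a peak interval. Lists of different depth were put on 1 scale by rank. Within each library, the summits on the 19 autosomes were ranked by the authors' −log10 p. The rank score of a region is the log2 of a ratio: 233609, the number of summits in the shortest list, over the rank of the best summit within 250 bp of the region's centre, and 0 where there was none. A rise of 1 brings a region to a rank divided by 2, nearer the top. A rank depends on all other summits of its library, so falls elsewhere can lift a region. Of 81044 windows of 500 bp, 72668 regions held by at least 2 of the 16 drug libraries were tested with limma.

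Lists from FHT1015-treated neurons were much shorter. They held 143439 and 158222 autosomal intervals with FHT1015, against 276666 and 240823 with DMSO, so the mean was 41.7% lower. The groups did not overlap. The intervals covered 66.7 and 75.7 Mb with FHT1015, against 122 and 105 Mb with DMSO, 37.2% less. The exact permutation p was 0.333 for both measures, the smallest that 2 libraries against 2 allow (two-sided). Read depth was not given. The background pileup is the number of reads per base that the authors' peak caller took as background. The lists do not give it, so it was estimated from the spacing of their fold enrichments, ratios given for each summit. The estimate, the nearest value to depth at hand, was 4.39 and 6.04 with FHT1015 and 7.44 and 5.51 with DMSO. These groups overlapped, with means of 5.22 with FHT1015 and 6.48 with DMSO (exact permutation p = 0.667, two-sided, 2 libraries each). The part of depth in the shorter lists was not tested.

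The intervals that remained had another shape. The median interval was 238 and 242 bp wide with FHT1015, against 286 and 283 bp with DMSO, while the mean was larger with FHT1015, at 465 and 479 bp against 439 and 436 bp. There were 1.63 and 1.68 summits per interval with FHT1015, against 1.41 and 1.41 with DMSO. Intervals over 1 kb were fewer, 16297 and 18352 with FHT1015 against 21657 and 19310 with DMSO, but made up a larger share of their lists, 11.4% and 11.6% with FHT1015 against 7.83% and 8.02% with DMSO. For intervals over 3 kb the groups overlapped, with 1230 and 1580 against 1251 and 942. Among intervals with a −log10 q of at least 5, 79725 and 90097 remained with FHT1015, against 199023 and 182586 with DMSO. With this stricter limit the mean was 55.5% lower with FHT1015, against 41.7% lower over all intervals. The difference in number itself hardly moved, at −105894 with the limit and −107914 without.

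**Figure D1:**
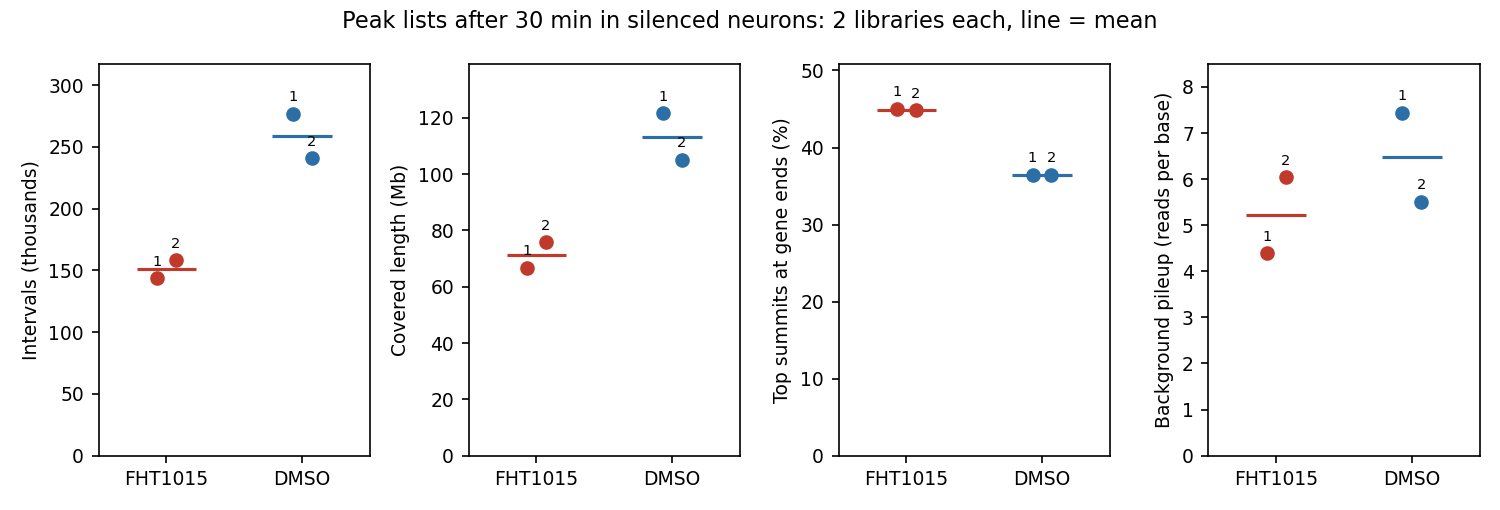
Peak lists of the 2 FHT1015 and 2 DMSO libraries at 30 min without KCl. The panels give the number of autosomal intervals (in units of 1000), the covered length (Mb) and the share of the top 75000 summits within 1 kb of a gene end (%). The last panel gives the estimated background pileup (reads per base). Points are libraries, numbered by replicate, and lines are means. The first 3 panels separate the groups (45.0% and 44.8% against 36.5% and 36.5% in the third), and the background pileup does not.

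In lists of equal length, the top-ranked summits of FHT1015-treated neurons lay nearer to genes. The shares below count summits, of which an interval held more with FHT1015 (1.63 and 1.68, against 1.41 and 1.41 with DMSO). Shares over intervals were not taken. Of the top 75000 summits, 45.0% and 44.8% lay at most 1 kb from an end of a protein-coding gene with FHT1015, against 36.5% and 36.5% with DMSO. Summits more than 100 kb from any gene end made up 6.94% and 7.04% with FHT1015, against 11.6% and 11.6% with DMSO. Those in between made up 48.1% and 48.1%, against 51.9% and 51.9%. Replicates of a group differed by less than 1 percentage point in these shares, and all 3 differences were larger than that spread (exact permutation p = 0.333, the smallest possible). At 10 min the gene-end share was already 42.0% and 43.3% with FHT1015, against 35.8% and 36.3% with DMSO. With KCl at 30 min it was 43.7% and 44.0% against 42.0% and 41.6%.

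Sites that were open in separate, earlier DMSO wells show what the shorter lists lost. Among regions held in the top 75000 by both 10 min DMSO libraries, gene-end regions were nearly all held at 30 min, 95.6% and 95.3% with FHT1015 against 97.9% and 97.9% with DMSO. Of the regions 1 to 100 kb from a gene end, called distal here, 59.5% and 59.9% were held with FHT1015, against 91.3% and 92.5% with DMSO. Of the regions over 100 kb away, called far, 42.4% and 43.1% were held with FHT1015, against 89.0% and 91.4% with DMSO. Most still had a peak of lower rank: any deposited interval still covered 89.4% and 92.1% of the distal and 84.7% and 89.3% of the far regions with FHT1015, against 100% in both DMSO libraries. This second criterion was added after seeing the data.

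The order was the same for regions drawn from FHT1015-treated wells. Of the distal regions held by both 10 min FHT1015 libraries, the 30 min libraries held 82.1% and 82.6% with FHT1015, against 88.5% and 87.9% with DMSO. Of the far ones they held 69.8% and 71.0% with FHT1015, against 92.5% and 91.8% with DMSO. Gene-end regions drawn this way went the other way, 97.1% and 97.0% against 93.3% and 93.0%. In depolarized neurons at 30 min, the 10 min DMSO regions that were held made up 67.0% and 64.3% of the distal ones with FHT1015, against 77.2% and 78.9% with DMSO.

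**Figure D2:**
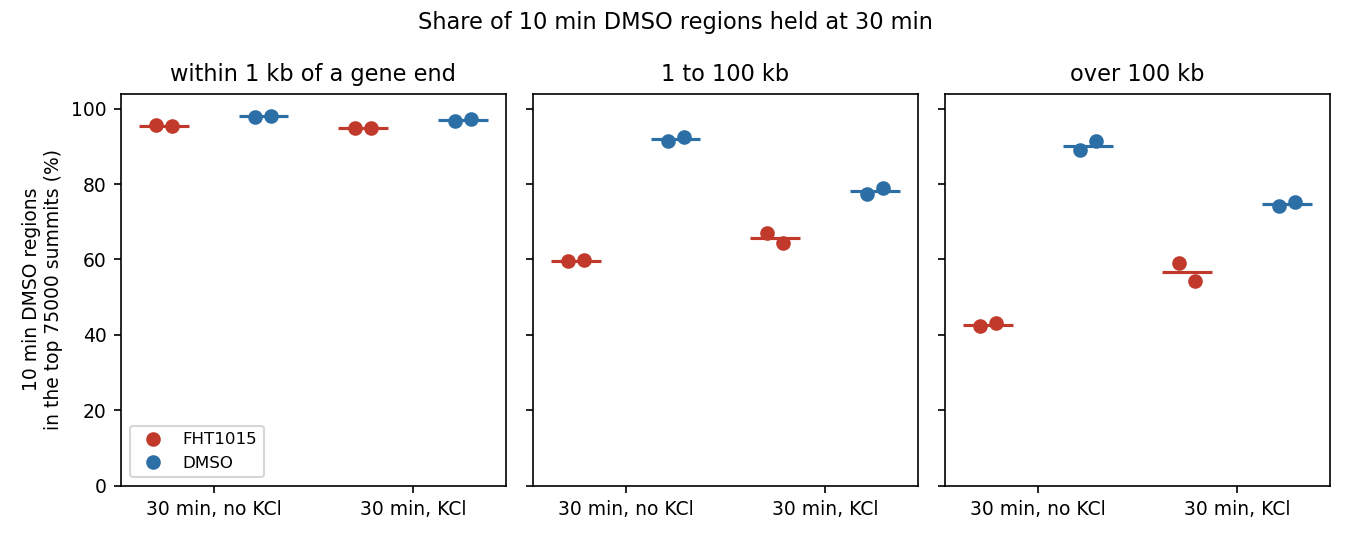
Percent of regions held in the top 75000 summits by both 10 min DMSO libraries that each 30 min library also held, by distance to the nearest gene end; red is FHT1015 and blue DMSO, points are libraries and lines are means. Without KCl the far regions stand at 42.4% and 43.1% with FHT1015 against 89.0% and 91.4% with DMSO, and the gene-end regions above 95% in every library.

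Across all regions tested, 46251 changed between FHT1015 and DMSO at 30 min, 63.6% (limma, Benjamini-Hochberg adjusted p under 0.05). Of all regions tested, 22.8% were higher with FHT1015 (16579) and 40.8% lower (29672). Large changes ran mostly downward: 20700 regions fell by at least 1 on the log2 rank scale and 2817 rose by as much (28.5% and 3.88% of those tested), and 4160 fell against 124 that rose by at least 2 (5.72% and 0.171%). For 3596 distal and 1322 far regions, both DMSO libraries had a summit and neither FHT1015 library did. The reverse held for 99 distal and 9 far regions. The median score over the regions tested was 2.06 with FHT1015 and 2.29 with DMSO, and centring each library on its median adds 0.23 to every change. The share of calls that were higher was 35.8% without centring, 49.8% with it and 13.2% with interval number as the covariate. With this covariate 9444 regions were called. When whole intervals were ranked as well as summits, 34615 were called with the same sign (47.6%), 11782 higher (16.2%) and 22833 lower (31.4%).

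Distance from genes ordered the changes. Gene-end regions had a median change of 0.15 (27.6% higher, 14.0% lower), distal regions −0.33 (23.2% higher, 47.6% lower) and far regions −0.98 (11.1% higher, 67.7% lower). After centring these medians were 0.38, −0.11 and −0.76. They were closer to 0 with lists shortened to the top 75000 summits, at 0.10, −0.0371 and −0.20, and the distal and far medians were −0.14 and −0.65 with intervals ranked. By distance, the median was 0.16 at 1 to 5 kb, −0.33 at 5 to 20 kb, −0.87 at 20 to 50 kb and −0.98 at 50 to 100 kb. It was lowest at 100 to 200 kb (−1.04), and stood at −0.97 at 200 to 500 kb and −0.75 over 500 kb. Lying inside or between genes made little difference: distal regions inside a gene had a median of −0.32, and those between genes −0.35. Gene-end regions over 1 kb from any start at hand had a median of 0.15, and regions at starts 0.14. Starts were at hand for 16457 of the 20665 genes and for none on chromosome 18, which was left out of these 2 medians. The first group can thus hold promoters, so the values do not compare 3′ ends with starts.

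**Figure D3:**
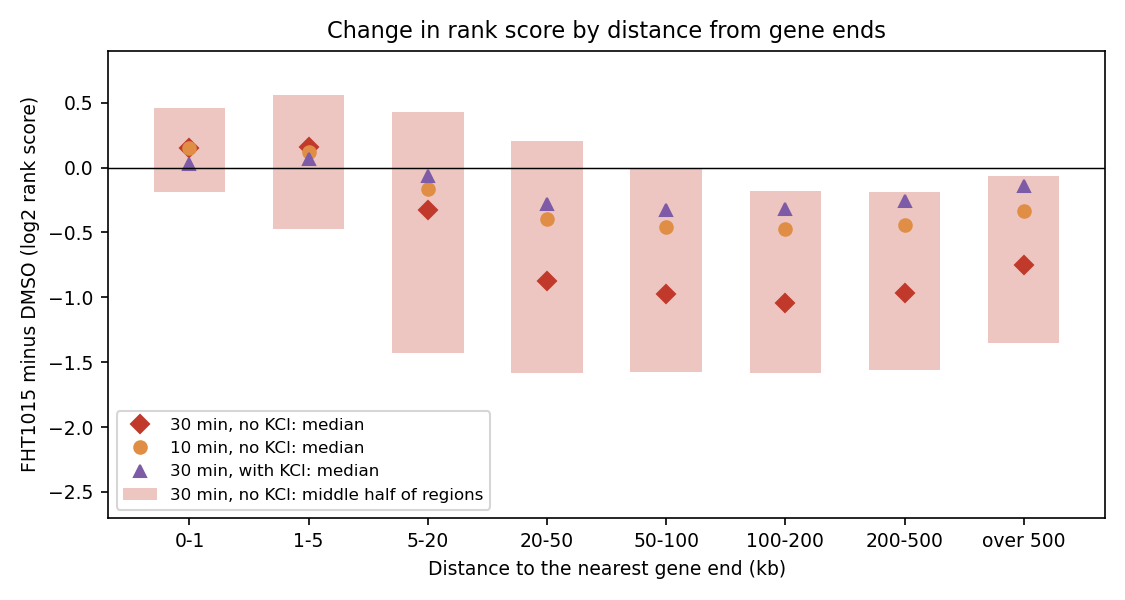
Change in log2 rank score, FHT1015 minus DMSO, by distance of the region to the nearest gene end (kb); red diamonds and bars give the median and the interquartile range of regions at 30 min without KCl, orange circles the median at 10 min, and purple triangles that at 30 min with KCl. The 30 min medians without KCl run from 0.15 within 1 kb to −1.04 at 100 to 200 kb, and the other medians lie closer to 0 beyond 5 kb.

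The order by distance was also seen among regions of like strength in the 10 min DMSO libraries. All regions tested were split into 4 groups by 10 min DMSO score, so that a class can have unequal numbers in them. Among gene-end regions the weakest group (3882 regions) had a median change of 0.55 and the strongest (10173) 0.05. Among distal regions the 4 groups, from weakest to strongest, had medians of 0.42, −0.81, −0.73 and −0.42. Among far regions all 4 medians were negative, at −0.58, −1.16, −1.07 and −0.85. Regions weak in 10 min DMSO could enter the test through higher ranks in other libraries, those with FHT1015 included. The part of this filter in the positive medians of the weakest gene-end and distal groups was not tested. Within 10 min in DMSO, KCl lowered 8451 regions, or 11.6% of those tested. The libraries that gave this set were not part of the 30 min comparison, but shared the variance of the same fit. The lowered regions had a median change of −0.95 with FHT1015, and 61.0% were called lower, beside 40.8% over all regions tested. They were mostly distal (5999, median −1.10) or far (1300, median −1.36). The 1152 at gene ends had a median of 0.06. Of these 22.4% were higher and 21.9% lower, beside 27.6% and 14.0% over all gene-end regions. Regions that KCl raised (5181, or 7.13%) had a median of 0.25. Of these 35.5% were called higher and 11.6% lower, beside 22.8% and 40.8% over all regions tested. Of the raised regions 2884 lay at gene ends and 2121 were distal, each with a median of 0.25. The distal ones were 36.5% higher and 13.2% lower, beside 23.2% and 47.6% over all distal regions. The 176 far ones had a median of 0.01. They were 26.1% higher and 28.4% lower, beside 11.1% and 67.7% over all far regions.

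Promoters that fell and promoters that rose are shown first as sequence. The letters are the 250 bases before the annotated start, 5′ to 3′ on the gene's strand, from RefSeq (GRCm38.p6), and capitals mark GGGCGG, the GC box of Sp-type factors, or its complement CCGCCC, and TGANTCA, the AP-1 motif. Both strands were searched, also for TGACGTCA, the full form of the CRE bound by CREB, which none of these 6 holds. Shorter forms, such as TGACGT in the Fos sequence, were not searched and are not marked. The 6 promoters show both directions but not the full range of changes at starts. Angptl2, Rgs4 and Epha5 fell, Fos was not called, and Rpl4 and Fezf2 rose. Larger changes at starts included −3.63 at Eif2ak4 and 2.90 at Ncoa7. Angptl2 encodes a secreted protein (chr2:33215711-33215960, plus strand). Rgs4 encodes a regulator of G protein signaling (chr1:169747643-169747892, minus strand), Epha5 an ephrin receptor (chr5:84417383-84417632, minus strand), Fos an AP-1 subunit (chr12:85473640-85473889, plus strand), Rpl4 a protein of the large ribosomal subunit (chr9:64173137-64173386, plus strand) and Fezf2 a factor of deep-layer projection neurons (chr14:12345866-12346115, minus strand).
Angptl2: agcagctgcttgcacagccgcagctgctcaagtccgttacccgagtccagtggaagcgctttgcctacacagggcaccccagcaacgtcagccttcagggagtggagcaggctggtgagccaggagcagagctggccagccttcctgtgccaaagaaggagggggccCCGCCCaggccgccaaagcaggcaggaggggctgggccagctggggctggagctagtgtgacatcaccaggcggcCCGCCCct
Rgs4: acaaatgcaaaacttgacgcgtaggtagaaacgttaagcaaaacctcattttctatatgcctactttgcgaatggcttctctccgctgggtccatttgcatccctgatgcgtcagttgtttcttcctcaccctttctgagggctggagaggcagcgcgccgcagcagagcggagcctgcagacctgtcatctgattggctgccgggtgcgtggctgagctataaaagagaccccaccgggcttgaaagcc
Epha5: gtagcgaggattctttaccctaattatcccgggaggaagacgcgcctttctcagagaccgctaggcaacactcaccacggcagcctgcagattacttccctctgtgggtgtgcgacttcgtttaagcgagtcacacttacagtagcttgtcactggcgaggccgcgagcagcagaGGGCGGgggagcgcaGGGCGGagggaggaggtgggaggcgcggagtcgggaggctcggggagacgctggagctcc
Fos: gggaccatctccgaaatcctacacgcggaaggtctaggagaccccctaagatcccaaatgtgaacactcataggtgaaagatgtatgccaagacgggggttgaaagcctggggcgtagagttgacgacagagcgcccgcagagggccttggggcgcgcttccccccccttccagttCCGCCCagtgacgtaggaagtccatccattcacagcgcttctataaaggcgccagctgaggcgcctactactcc
Rpl4: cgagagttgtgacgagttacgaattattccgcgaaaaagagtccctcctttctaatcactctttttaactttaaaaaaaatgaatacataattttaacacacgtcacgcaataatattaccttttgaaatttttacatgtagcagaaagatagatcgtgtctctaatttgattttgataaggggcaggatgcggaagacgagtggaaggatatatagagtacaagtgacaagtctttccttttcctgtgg
Fezf2: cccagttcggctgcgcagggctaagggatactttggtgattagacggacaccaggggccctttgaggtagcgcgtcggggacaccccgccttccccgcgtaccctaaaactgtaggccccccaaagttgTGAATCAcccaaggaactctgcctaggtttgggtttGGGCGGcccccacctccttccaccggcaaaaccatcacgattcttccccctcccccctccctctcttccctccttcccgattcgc

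At Angptl2 the rank score of the region at this promoter (chr2:33215591-33216090) was 1.98 and 2.17 with FHT1015, against 4.57 and 4.35 with DMSO, a change of −2.38 ± 0.15 (SE of the limma fit, adjusted p = 1.98e-08). At Rgs4 (chr1:169747466-169747965) it was 2.90 and 2.77 with FHT1015, against 4.29 and 4.20 with DMSO (−1.41 ± 0.14, adjusted p = 5.93e-07). Both promoters were well apart between the groups, and the intervals around them fell too, by 1.63 and 0.81. Epha5 (chr5:84417195-84417694) stood at 5.09 and 5.03 with FHT1015, against 5.90 and 5.92 with DMSO (−0.85 ± 0.13, adjusted p = 6.30e-05). Fos (chr12:85473680-85474179) had 6.20 and 6.44 with FHT1015, against 6.27 and 6.30 with DMSO, so its groups overlapped (0.03 ± 0.27, adjusted p = 0.920). Rpl4 (chr9:64173153-64173652) had 3.76 and 3.85 with FHT1015, against 2.79 and 2.83 with DMSO (0.99 ± 0.12, adjusted p = 4.01e-06). Fezf2 (chr14:12345583-12346082) had 2.17 and 1.99 with FHT1015, against 0.94 and 0.82 with DMSO (1.20 ± 0.17, adjusted p = 2.76e-05).

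Over the 9722 promoters with a region within 300 bp of their start, base composition went with the change. CpG-rich promoters are typical of genes used in most cells, and CpG-poor promoters of genes with restricted use. In the 300 bases from 250 before to 50 after the start, promoters with 0 to 4 CG had a median change of −0.27, and 44.9% were lower and 18.6% higher with FHT1015. With 5 to 9 CG the median was −0.10 (32.1% lower), and with 10 to 19, 20 to 29 and 30 to 67 CG it was 0.07, 0.06 and 0.06 (17.4%, 14.6% and 11.1% lower). The share called lower thus fell at each step, although the weaker ranks of CG-poor promoters (median score 2.20 with FHT1015 and 2.56 with DMSO, against 4.88 and 4.84 in the richest bin) move with it. With intervals ranked, the poorest bin had a median of −0.01 and the next 0.02. After centring they had −0.05 and 0.12.

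The 373 promoters that fell by at least 1 held a median of 11 CG, against 22 over all promoters with a region. GGGCGG was found in 46.1% of them and in 69.1% of all with a region, close to the 47.0% of all 20085 promoters of the table. TGANTCA was found in 6.97%, against 4.05% of all with a region and 7.06% of the table. TGACGTCA was found in 4.75% of the promoters called higher, 1.79% of those called lower, 3.47% of all with a region and 2.30% of the table. CANNTG, the E-box of bHLH factors, was in 73.5% of those that fell by at least 1 and 61.5% of all with a region. None of the 4 motifs contains another, though matches can overlap, and these shares are descriptions without a test.

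The distal regions that fell most lay inside or between genes. Each distal region is named by its nearest gene, which need not be the gene it acts on. A distal region can also lie at an annotated start inside a gene, since only the outer ends of genes set the class. The largest fall was 15.9 kb inside Vangl1, a planar cell polarity gene (chr3:102169192-102169691). Its score was 1.20 and 1.29 with FHT1015, against 4.80 and 4.88 with DMSO, a change of −3.59 ± 0.12 (adjusted p = 2.94e-10). In ranks, it stood at 101337 and 95685 with FHT1015, against 8413 and 7919 with DMSO. The next 5 regions, at Eef1akmt4-ece2, the collagen gene Col16a1, the folate transporter gene Slc46a1, the TGF-beta pathway gene Pmepa1 and the RNA-binding protein gene Rbm19, fell by 3.16 to 3.27. All 6 lay 7.36 to 34.3 kb from a gene end. Only regions whose groups did not overlap could enter this ranking.

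At gene ends the 6 largest falls split into 2 kinds. For Fgd3, Angptl2 and Gipr, the receptor of the gut hormone GIP, the summit and the whole interval both fell, by 2.29 to 2.39 and by 1.53 to 1.68. Fgd3 had 3.01 and 3.09 with FHT1015, against 5.22 and 5.65 with DMSO. For Eif2ak4, which encodes the stress kinase GCN2, Adam9, a membrane protease gene, and Odc1, the first enzyme of polyamine synthesis, the summit score fell by 2.61 to 3.63. In each of the 4 libraries an interval covered these 3 regions, and ranked as intervals they changed by −0.03 to −0.18 (adjusted p = 0.465 to 0.858). At Adam9 the change was 0.17 with summits within 500 bp.

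The largest rises were fewer and less uniform. Ncoa7, a nuclear receptor coactivator gene, rose in a region 289 bp from an annotated start (chr10:30803365-30803864), with 4.38 and 4.35 with FHT1015 against 1.47 and 1.46 with DMSO (2.90 ± 0.13, adjusted p = 3.38e-09, interval 0.37). Some of the regions that rose ranked near the top of every list. Artefact-prone sites were not filtered out here, and their part in these ranks was not tested. A region 61.2 kb from Axin2, a Wnt feedback gene, held ranks 55 and 43 with FHT1015 against 384 and 745 with DMSO (3.46 ± 0.34, adjusted p = 6.81e-07). One 30.2 kb from Cdk8, a kinase of Mediator, held ranks 226 and 175 against 640 and 1292 (2.19 ± 0.27, adjusted p = 5.59e-06). The regions at Sp2 and Dcaf6 also ranked within the first 299 of each list. Fcgr4, an immunoglobulin receptor gene, had a region that rose by 1.27 and, as an interval, by 1.51.

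Some rises at gene ends rested on 1 library or on where the summit fell. At Gsk3b, a kinase of Wnt signaling, scores were 5.21 and 5.22 with FHT1015 against 4.64 and 0 with DMSO. At Smad7, an inhibitor of TGF-beta signaling, they were 4.03 and 3.96 against 0 and 3.70, and at Klf13, a zinc finger gene, 3.61 and 3.82 against 0 and 3.46. The calls held in 2, 2 and 1 of the 4 fits that left out a library, and with interval number as the covariate Smad7 and Klf13 had changes of −1.40 and −1.42. At Foxn2, a forkhead gene, scores were 3.83 and 3.96 with FHT1015 against 0 and 0 with DMSO, but an interval covered the region in all 4 libraries and rose by 0.38. Uspl1 and the neuronal gene Nrep were higher by 1.90 and 1.32. With the covariate Uspl1 had −0.01, and with summits within 500 bp Nrep had −0.30.

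The activity genes, whose early members neurons switch on within minutes of firing, had no uniform change at rest. The counts of each gene list below stand beside 27.6% higher and 14.0% lower over all gene-end regions tested, and 23.2% higher and 47.6% lower over all distal ones. Of 128 early activity regions at gene ends, 36 were higher and 12 lower with FHT1015, with a median of 0.14 beside 0.15 over all gene-end regions (−0.02 beside 0.16 with interval number as the covariate). Of the 300 distal regions of this list 55 were higher and 89 lower, with a median of 0.00 beside −0.33, and 61 of them had no summit in any of the 4 libraries. With the covariate that median was −0.39 beside −0.34 over all distal regions, so the difference was not seen there. Egr1, an immediate early transcription factor, had 9.41 and 10.18 at its gene end with FHT1015, against 9.12 and 8.79 with DMSO (0.84 ± 0.50, adjusted p = 0.156). Npas4, an activity-induced factor, had no summit in a region 843 bp from its gene end with FHT1015 and 0.19 and 0.30 with DMSO (−0.25 ± 0.19, adjusted p = 0.277). Arc, which encodes a synaptic capsid-like protein, fell at its gene end to 2.48 and 2.64 with FHT1015, against 4.01 and 3.82 with DMSO (−1.35 ± 0.15, adjusted p = 2.61e-06).

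Away from the Fos start, which did not pass, a region 37.6 kb from the gene (chr12:85436059-85436558) stood at 1.45 and 1.92 with FHT1015, against 3.94 and 4.53 with DMSO (−2.56 ± 0.20, adjusted p = 9.60e-08). Promoter and distal region of the same gene thus differed in their values, a contrast that was not itself tested. A region 56.0 kb from Dusp6, a phosphatase that restrains ERK, had no summit in either FHT1015 library, against 2.98 and 2.92 with DMSO (−2.95 ± 0.19, adjusted p = 2.24e-08). Klf10, an early zinc finger gene, had no summit at its gene end with FHT1015, against 2.08 and 1.79 with DMSO (−1.93 ± 0.20). Nr4a1, an orphan nuclear receptor gene, had 1.97 and 1.99 against 2.49 and 2.40 at its gene end (−0.47 ± 0.14, adjusted p = 0.00901), and as an interval −0.06. The start of Bdnf, a neurotrophin gene, rose by 0.63 ± 0.18 (adjusted p = 0.00587).

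Late activity genes gave 16 higher and 13 lower of 49 gene-end regions (32.7% and 26.5%), and 73 and 64 of 203 distal ones. The distal median was 0.11, but 0.00 with intervals ranked and 0.02 with the covariate. Besides Rgs4, a region 17.8 kb from Kcna1, a potassium channel gene, had no summit with FHT1015 against 2.71 and 2.75 with DMSO (−2.73 ± 0.17). The AP-1 and CREB family list, the factors that read activity signals on DNA, had 23 higher and 4 lower of 55 gene-end regions (median 0.36, and 0.07 with intervals ranked). Its 92 distal regions gave 15 higher and 30 lower, with a median of −0.10, which was 0.13 after centring and −0.32 with the covariate. Atf4, a stress-response factor, rose in a region 1.88 kb from an annotated start by 1.38 ± 0.17. Bach2, a partner of small Maf proteins, had 14 lower and 1 higher of its 22 distal regions.

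Distal regions of transcription factors that shape cortical neurons went against the general fall. The list of enhancer factors regulated in neurons had 225 higher and 88 lower of 443 distal regions, with a median of 0.45 where all distal regions had −0.33. Its median stayed above 0 with intervals ranked (0.30), with the covariate (0.37) and after centring (0.67). Tcf4, a bHLH factor of neuronal maturation, had 43 higher and 3 lower of 62 distal regions (median 0.78). Mef2c, an activity-responsive factor, had 47 and 7 of 79 (median 0.58). Pou3f3, in the excitatory neuron list as well, had 20 and 4 of 38.

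The list was not of 1 kind. Klf7 had 0 higher and 12 lower of 19 distal regions, and Mef2d 6 and 6 of 21. The region of the list with the smallest p, 62.6 kb from Pou3f1, fell to 2.00 and 1.81 with FHT1015, against 4.02 and 4.06 with DMSO (−2.13 ± 0.14, adjusted p = 2.25e-08). At its gene ends 23 of 44 regions were higher and 2 lower (median 0.46, and 0.215 with intervals ranked). Sox4, a factor of early neuronal differentiation, rose there by 1.56 ± 0.20 with summits ranked and by 4.04 with intervals ranked.

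Excitatory neuron genes had 22 higher and 3 lower of 46 gene-end regions (median 0.43), and 84 and 61 of 206 distal ones (median 0.26, and 0.09 with intervals ranked). Lhx2, a cortical selector gene, had 13 higher and 4 lower of 21 distal regions, but the upper-layer factor genes Cux1 and Cux2 had 7 and 9 of 17, and 3 and 8 of 16. A region 26.4 kb inside Cux1 had no summit with FHT1015, against 2.72 and 2.49 with DMSO (−2.60 ± 0.22). Inhibitory neuron genes had 7 higher and 1 lower of 19 gene-end regions, and 22 and 26 of 72 distal ones. Dlx5, an interneuron lineage factor, rose at its gene end by 1.29 ± 0.20. This value was −0.28 with summits within 500 bp. A region 90.0 kb from Dlx2 had no summit with FHT1015, against 1.68 and 1.78 with DMSO (−1.73 ± 0.15).

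At distal regions of signaling and synapse genes falls outnumbered rises, as they did over all distal regions. Receptors and ligands of the cultures had 98 lower and 36 higher of 185 distal regions (53.0% and 19.5%), with a median of −0.77, and −0.42 to −0.54 in the 3 other scalings. Ephb2 and Epha4, ephrin receptors, had 12 lower and 4 higher of 18, and 9 and 1 of 15. Slit1, an axon guidance ligand, had 11 lower and 2 higher of 17. A region 41.1 kb inside Ntrk2, the receptor of BDNF, fell to 2.75 and 2.88 with FHT1015, against 5.33 and 5.16 with DMSO (−2.43 ± 0.13, adjusted p = 7.66e-09). Synapse and excitability genes had 113 lower and 54 higher of 232 distal regions (48.7% and 23.3%, median −0.36), close to all distal regions. A region 31.0 kb inside Camk2b, a subunit of the calcium-dependent kinase of synapses, fell to 2.06 and 2.18 with FHT1015, against 5.30 and 5.24 with DMSO (−3.14 ± 0.16, adjusted p = 4.39e-09). Shank2, a postsynaptic scaffold gene, rose at its gene end by 1.70 ± 0.21 (interval 0.69, adjusted p = 0.306).

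**Figure D4:**
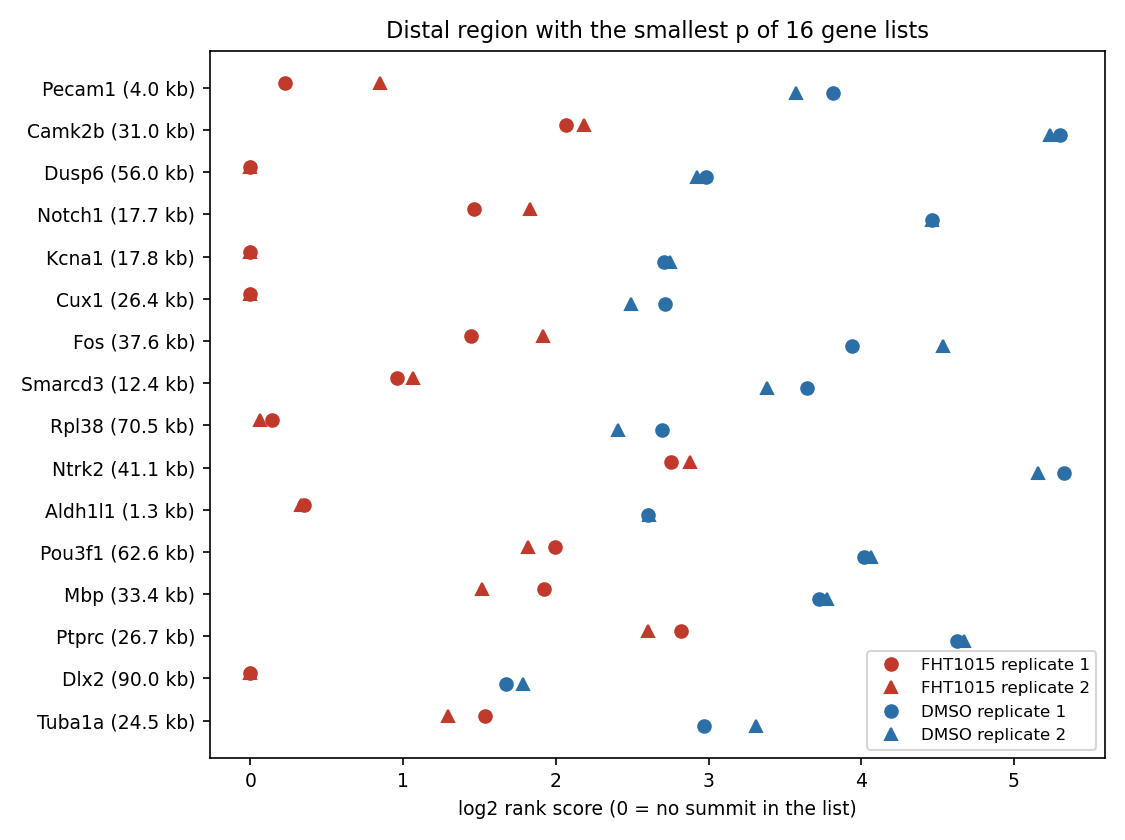
Rank score (log2; 0 where no summit lies in the ranked list) in each of the 4 libraries at the distal region with the smallest p of each of 16 gene lists, ordered by change, with distance to the nearest gene end; red is FHT1015, blue is DMSO, and the shape gives the replicate. In all 16 the FHT1015 libraries lie below both DMSO libraries, which is no test since the regions were chosen by p, with changes from −3.16 at Pecam1 to −1.72 at Tuba1a.

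Subunits of BAF and its relatives PBAF and ncBAF, the target of the compound, had 21 higher and 7 lower of 61 gene-end regions (34.4% and 11.5%, median 0.24), and 45 and 56 of 151 distal ones (29.8% and 37.1%). Smarca4, the main motor, had 7.84 and 7.52 at its start with FHT1015, against 6.32 and 7.02 with DMSO (1.00 ± 0.28, adjusted p = 0.00530), a call that held in 3 of the 4 fits that left out a library. A region 667 bp from the same start had 3.66 and 3.55 with FHT1015 and no summit with DMSO, although an interval covered it in all 4 libraries. Smarca2, the other motor, had 8.81 and 8.30 against 9.23 and 9.25 (−0.69 ± 0.36, adjusted p = 0.108). Smarcc2, a core subunit, had 4.87 and 4.94 against 4.59 and 4.63 (0.30 ± 0.12, adjusted p = 0.0434), lost in each fit that left out a library. Arid2, a PBAF subunit, had 3.20 and 3.35 against 3.16 and 2.35 (adjusted p = 0.196). Distal regions fell at Smarcd3, a neuronal subunit gene (12.4 kb, −2.50 ± 0.15), and 11 of 19 at Arid1b were lower and 3 higher. Bcl11a had 8 higher and 1 lower of 17.

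Ribosomal protein genes, a class used in every cell, had 54 higher and 3 lower of 88 gene-end regions. Their median was 0.48, and 0.29 to 0.71 in the 3 other scalings. Housekeeping genes had 13 higher and 3 lower of 37 (median 0.29, but 0.03 with intervals ranked), and 35 and 14 of 81 distal ones (median 0.33, but 0.01 with the covariate). Gapdh, a glycolysis gene, had 6.75 and 6.84 at its gene end with FHT1015, against 6.86 and 6.85 with DMSO (−0.06 ± 0.20, adjusted p = 0.813). Actb, which encodes actin, fell in a region 368 bp from its end by 1.43 ± 0.17, and by 0.39 as an interval (adjusted p = 0.126). Chromatin architecture and Polycomb genes had 16 higher and 2 lower of 33 gene-end regions, and 25 and 9 of 57 distal ones. Among them Kdm6b, an H3K27 demethylase gene, had 0.94 ± 0.13 with summits and −0.19 with intervals ranked.

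**Figure D5:**
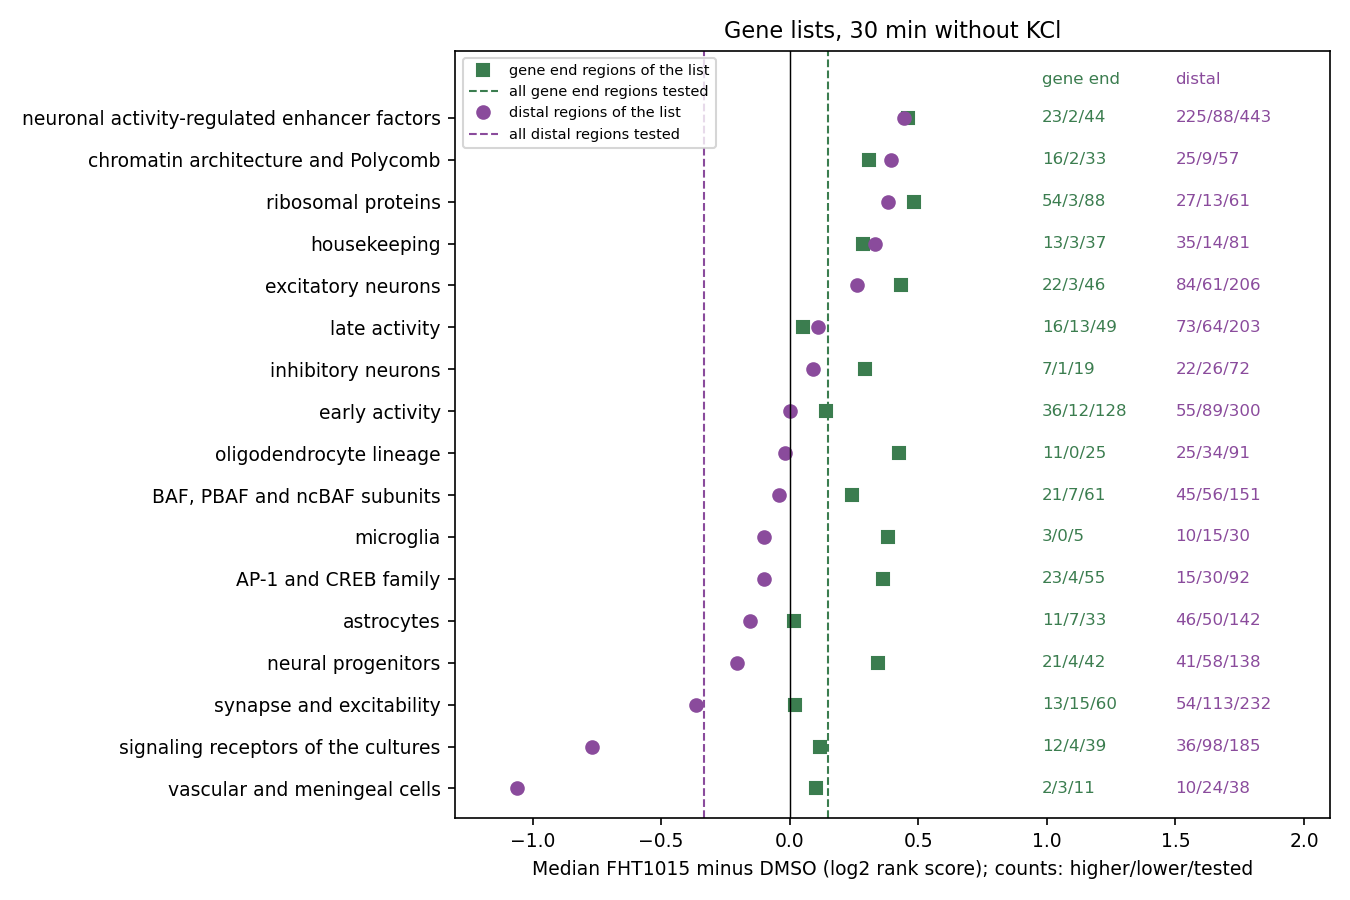
Median change in log2 rank score, FHT1015 minus DMSO, over the gene-end (green squares) and distal (purple circles) regions of each gene list at 30 min without KCl; dashed lines give all gene-end and all distal regions tested, and the numbers at the right the regions higher, lower and tested. Distal medians run from 0.45 for the enhancer factors to −1.06 for vascular and meningeal genes, against −0.33 over all distal regions.

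Markers of other cells in the culture also moved. Vascular and meningeal genes had 24 lower and 10 higher of 38 distal regions (median −1.06, and −0.66 to −0.83 in the 3 other scalings), led by a region 3.99 kb inside Pecam1, an endothelial adhesion gene. Its scores were 0.23 and 0.85 with FHT1015, against 3.81 and 3.57 with DMSO (−3.16 ± 0.19, adjusted p = 1.66e-08). Both FHT1015 libraries held 2 of 10 vascular markers at gene ends in their top 75000, and both DMSO libraries 3 of 10. Of 8 microglia markers, 1 was held by both libraries of either group, and the median best score was 0. Excitatory neuron markers were held in 10 of 12 with FHT1015 and 7 of 12 with DMSO. Those missing with DMSO included Rbfox3, Slc17a6, Slc17a7 and Tbr1. Gene ends of any kind made up more of the top 75000 summits with FHT1015 (45.0% and 44.8%, against 36.5% and 36.5% with DMSO). The share of all genes held was not counted, so these marker counts are not shown to be particular to a cell type. The part of cell makeup in the changes was not tested.

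Glial and progenitor genes showed both directions. Notch1, a receptor of progenitors and vessels, had 15 lower and 1 higher of 18 distal regions; one 17.7 kb inside the gene fell to 1.47 and 1.83 with FHT1015, against 4.46 and 4.46 with DMSO (−2.81 ± 0.15, adjusted p = 7.66e-09). The progenitor list had 21 higher and 4 lower of 42 gene-end regions, and 41 and 58 of 138 distal ones (median −0.20, and −0.07 to 0.02 in the 3 other scalings). Neurog1, a proneural factor, fell at its start by 1.22 ± 0.16. Astrocyte genes had 46 higher and 50 lower of 142 distal regions (median −0.15, and 0.03 to 0.09 in the 3 other scalings), with falls of 2.27 ± 0.16 at Aldh1l1 and 1.52 ± 0.20 at the gene end of the glutamate transporter gene Slc1a3. Oligodendrocyte lineage genes had 11 higher and 0 lower of 25 gene-end regions, and 25 higher and 34 lower of 91 distal ones (median −0.02, and 0.08 to 0.21 in the 3 other scalings). Pdgfra, the receptor of their precursors, rose to 3.30 and 3.24 with FHT1015, against 2.06 and 1.74 with DMSO (1.37 ± 0.18, adjusted p = 9.55e-06), while a distal region of the myelin gene Mbp fell by 2.03 ± 0.15.

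Many distal and far regions had a more negative change at 30 than at 10 min. The difference of the 2 changes, tested as an interaction of separate libraries, passed for 10750 regions (14.8%): 10015 more negative at 30 min (13.8%) and 735 more positive (1.01%). At 10 min 39.1% of all regions tested were called, 11.8% higher and 27.3% lower with FHT1015. Of the far regions 22.7% passed on the negative side, of the distal 16.8% and of the gene-end regions 3.17%. Median changes at 10 min were 0.15, −0.16 and −0.45 for gene-end, distal and far regions, against 0.15, −0.33 and −0.98 at 30 min. With lists shortened to their top 75000 summits the interaction gave 3335 positive and 3441 negative calls, so the lean to negative calls was not seen there. Among named regions, Vangl1 had −1.47 at 10 min and −3.59 at 30 min (difference −2.13 ± 0.17), and Neurog1 0.11 and −1.22. Actb had −1.42 and −1.43, and the Smarca4 region 667 bp from the start 3.42 and 3.61.

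In depolarized neurons the median change was smaller in size in each class. At 30 min with KCl the medians were 0.03, −0.12 and −0.27 for gene-end, distal and far regions. Without KCl they were 0.15, −0.33 and −0.98. The difference between the changes without and with KCl passed for 18519 regions (25.5%), 14118 more negative (19.4%) and 4401 more positive (6.06%) without KCl. With KCl, 50.1% of all regions tested were called, 19.6% higher and 30.4% lower with FHT1015. At gene ends more regions were called lower with KCl (4019, against 2863 without) and fewer higher (3776 against 5633). The estimated background pileup with KCl was 5.54 and 2.93 with FHT1015, against 5.92 and 7.47 with DMSO. In DMSO, the gene-end share of top-ranked summits was 42.0% and 41.6% with KCl, against 36.5% and 36.5% without. The part of these differences in the smaller medians was not tested. Of the far regions 35.5% passed on the negative side, and 10.6% of the gene-end regions on the positive side. The region near Dusp6 changed by −2.95 without KCl and by −0.06 ± 0.19 with it (adjusted p = 0.807). The region 37.6 kb from Fos changed by −2.56 without KCl and −0.33 with it (adjusted p = 0.183). The Notch1 region changed by −2.81 without KCl and −2.31 with it, and the Smarca4 region 667 bp from the start by 3.61 and 3.51, differences that did not pass.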

How the data were processed

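ATAC-seq was measured in 16 libraries of the drug experiment, 2 per group; the submitters' processing notes name bedtools, MACS2, Picard, SAMtools, Bowtie2, Trim Galore and FastQC, without versions. The deposited lists, 1 per library and on mm10, give for each summit a fold enrichment (a ratio), a −log10 p and a −log10 q, all from the authors' peak caller.

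Regions are 500 bp windows on the top 75000 autosomal summits of each library, best rank first, with centres at least 500 bp apart. Scores were fitted with limma 3.58.1 in R 4.3.3, with 1 mean per group over all 16 libraries, a trend in the variance and Benjamini-Hochberg adjustment over 72668 regions. The procedure was tested on simulated data. Single values per library were tested by exact permutation. Gene ends came from 20665 protein-coding genes of GRCm38.p6. No counting interval could be given, since read depth is unknown.

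The members and the 17 gene lists (392 genes, 22 in more than 1 list) were chosen with earlier results of these data known. Named regions were, in each of 4 classes (higher or lower, gene end or distal), the 6 with the largest called change whose groups did not overlap, whose interval changed with the same sign and whose mean score was at least 3; the region of each list and class with the smallest p; and the gene-end region with the highest mean score at 12 fixed genes. Alternatives were other units, list lengths, filters, scalings and fits, each library left out, and a replicate block. Deviations from group means of same-numbered FHT1015 and DMSO libraries at 30 min without KCl correlated at 0.007, and the main fit used no pairing. Such a value cannot show that same-numbered libraries come from separate embryos. Libraries of the other experiments were not used here. Some genes of the lists are not reported here by name, but remain in the counts.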

Additional observations from a re-analysis of the deposited data

Results flagged for a closer look

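The results below were singled out because the FHT1015 change at 30 min without KCl differed, by an interaction test in the same limma fit (adjusted p under 0.05), from the change in another group of libraries.

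Between 30 and 10 min the change differed for 10750 regions. Among named gene-end regions, the difference, 30 minus 10 min on the log2 rank scale, was positive at Foxn2 (3.24) and Pdgfra (0.80). It was −2.69 at Eif2ak4, −1.97 at Gipr, −1.82 at Angptl2, −1.33 at Neurog1, −1.12 at Fgd3, −0.98 at Klf10, −0.80 at Rgs4, −0.78 at Arc and −0.61 at Epha5. Among named distal regions it was positive at Axin2 (1.49) and Nrep (0.99). It was −2.27 at Eef1akmt4-ece2, −2.13 at Vangl1, −1.97 at Slc46a1, −1.92 at Pmepa1, −1.84 at Col16a1, −1.79 at Camk2b, −1.77 at Aldh1l1, −1.75 at Dusp6, −1.72 at Pecam1, −1.61 at Rbm19 and −1.53 at Notch1. The remaining differences were −1.48 at Kcna1, −1.41 at Cux1, −1.38 at Rpl38, −1.37 at Smarcd3, −1.16 at Pou3f1, −1.15 at Ntrk2, −1.13 at the distal Fos region, −1.10 at Ptprc, −1.08 at Tuba1a, −0.86 at Mbp and −0.76 at Dlx2.

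Between neurons without and with KCl at 30 min, the change differed for 18519 regions. Among named gene-end regions, the difference, without minus with KCl, was 3.18 at Foxn2, 1.37 at Sox4, 1.03 at Fezf2 and 0.99 at Shank2. It was −3.53 at Adam9, −3.04 at Eif2ak4, −2.66 at Odc1, −1.88 at Gipr, −1.51 at Angptl2, −1.17 at Slc1a3, −0.89 at Actb, −0.83 at Klf10 and −0.74 at Epha5. Among named distal regions it was 2.47 at Ncoa7, in a region close to an annotated start, 0.91 at Fcgr4 and 0.64 at Nrep. It was −2.89 at Dusp6, −2.59 at Vangl1, −2.27 at Kcna1, −2.23 at the distal Fos region, −2.19 at Pmepa1, −2.10 at Slc46a1, −2.05 at Rbm19, −1.79 at Pecam1, −1.77 at Eef1akmt4-ece2, −1.58 at Mbp and −1.50 at Camk2b. The remaining differences were −1.36 each at Rpl38, Cux1 and Aldh1l1, −1.13 at Col16a1, −1.12 at Pou3f1, −0.86 at Ntrk2, −0.75 at Ptprc, −0.72 at Smarcd3 and −0.68 at Tuba1a.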

How the results depend on the processing

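Each group had 2 libraries and unknown depth, rank scores are relative, and the number of intervals, itself lower with FHT1015 in both libraries, tracks the treatment; with it as a covariate 9444 regions were called, against 46251 without, and the cause was not tested. The medians of gene-end, distal and far regions kept their signs in all alternatives run. Of the 63 called regions that the naming rule chose, 54 held in all 4 fits that left out a library.

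With regions from the top 30000 summits, which leaves fewer regions to test, 14408 were called (4939 higher, 9469 lower), with interval number as a covariate 9444 (1248 and 8196), and after centring 25739 were higher. Without each library in turn, 39791 to 41156 were called. The difference between times gave 6776 calls with lists shortened to the top 75000 (3335 and 3441), 3421 from the top 30000 (214 and 3207) and 6177 with the covariate (370 and 5807); positive calls numbered 342 to 603 without each library, with 342 and 443 without FHT1015 replicates 1 and 2. That between states gave 5580 from the top 30000 (1284 and 4296), 7032 and 9337 with lists shortened, and 2896 positive with the covariate; positive calls numbered 2795 to 3460 without each library, lowest without FHT1015 replicate 1.

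The gene-end median was 0.10 with lists shortened, 0.0885 from the top 30000 and 0.38 centred. The distal median was −0.14 with intervals, −0.0371 with lists shortened, −0.30 from the top 30000, −0.32 with summits within 500 bp, −0.34 without filter, −0.34 with the covariate, −0.11 centred, −0.57 with gene ends of 2.5 kb and −0.34 to −0.32 without each library. The far median was −0.65 with intervals, −0.20 with lists shortened, −0.80 from the top 30000, −0.80 with the covariate, −0.76 centred and −0.99 to −0.95 without each library. Over all lists, 275 gene-end regions were higher and 78 lower; these were 129 higher from the top 30000, 20 and 10 with the covariate, and 44 lower centred. Of distal ones 691 were higher and 781 lower, or 155 and 279 from the top 30000, and 63 and 202 with the covariate. The replicate block gave 46098 calls beside 46251 and lost 1 named call. Changes of sign were −1.40 at Smad7, −1.42 at Klf13 and −0.0095 at Uspl1 with the covariate, −0.30 at Nrep, 0.17 at Adam9 and −0.28 at Dlx5 with summits within 500 bp, and −0.19 at Kdm6b with intervals. Ranking by fold enrichment was the same by construction.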

Other observations

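Distal regions of some progenitor and glial genes included more rises than falls with FHT1015 at 30 min. Sox2, a stem cell factor, had 14 higher and 5 lower of 31 distal regions, Olig2, an oligodendrocyte factor, 8 and 2 of 15, and Pax6, a progenitor factor, 7 and 2 of 13. These genes were picked after their values were seen, and their lists as a whole had more falls than rises at distal regions: 41 higher and 58 lower of 138 for neural progenitors, and 25 and 34 of 91 for the oligodendrocyte lineage.

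A region 26.7 kb inside Ptprc, the leukocyte gene CD45, ranked high in the cultures although 7 of 8 microglia markers were not held by both DMSO libraries at gene ends. Its scores were 2.82 and 2.60 with FHT1015, against 4.63 and 4.67 with DMSO.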
